A study of Mus musculus with 29 samples.

Results

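Dual specificity phosphatases take phosphate off both the tyrosine and the threonine of their substrates. A branch of the family acts on the MAP kinases ERK, JNK and p38, which those phosphates switch on. Several of the genes are themselves induced by the kinase pathway that they brake, so their mRNA is often read beside that of other activity-regulated genes. In the striatum, dopamine and glutamate inputs reach ERK in the projection neurons. The 10 genes described here, Dusp1, Dusp3, Dusp4, Dusp5, Dusp6, Dusp7, Dusp8, Dusp10, Dusp14 and Dusp26, were taken by symbol from 19938 genes tested, and all 10 were measured. Dusp14 was chosen by its array level at 12 months, where it was lower in HdhQ150 mice, so the 12-month difference between genotypes is given as a description without a test. The same holds for Dusp14 in any comparison that uses 12-month mice.

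RNA of the caudate nucleus was hybridised to 1 array per mouse in 29 mice of the strain background 129/Ola x C57BL6/J. HdhQ150 mice have a lengthened CAG repeat knocked in to their own huntingtin gene, Htt, and therefore express the mutant protein wherever that gene is active. By age, 5, 6 and 4 HdhQ150 mice of 6, 12 and 18 months were set against 5, 5 and 4 wild-type littermates. Each age was sampled from other animals, so no mouse was followed over time. Males by label were 1 HdhQ150 and 2 wild-type mice of 6 months and 2 HdhQ150 and 1 wild-type of 12 months; the 18-month mice were all female. Values are log2 expression levels, on which a difference of 1 is a doubling, and errors are SD over mice for levels and SE for differences.

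The array medians ran from 6.91 to 7.05, and precision is limited by how many arrays there are. Htt, whose probes check the genotype labels, was lower in every HdhQ150 mouse than in any wild-type mouse of the same age. The differences were -0.39, -0.42 and -0.32 at 6, 12 and 18 months (limma adjusted p 0.00457, 0.000122 and 0.0523). The 18-month adjusted p was 0.0219 without the mice WT-454 and 1023 described next, and up to 0.367 over the alternatives. Leaving out 1 mouse gave up to 0.297 at 18 months. Among mice labelled female the 6-month difference was -0.36 (adjusted p 0.125). The array of wild-type mouse WT-454 (12 months) was least like those of its group (mean correlation 0.945), and HdhQ150 mouse 1023 at 6 months, labelled female, had the Xist and Eif2s3y levels of the males. Calls of the phosphatases that change without these 2 mice are given both ways. In whole tissue, fewer cells of a type and less RNA per cell cannot be told apart. The sources used here do not give hybridisation or scan batches, so age and any such batch cannot be told apart.

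Promoter sequence was at hand for 8 of the 10 genes, in RefSeq's mouse table of build GRCm38.p6, as the 250 bases before each annotated start; Dusp4 and Dusp26 had no entry. Sites commonly bound by factors that act downstream of cAMP and ERK were searched on both strands. The cAMP response element, TGACGTCA, stood in the windows of Dusp1 and Dusp8 and in 1.55% of all 32851 windows. The CArG box, the site of serum response factor, stood in the Dusp5 window as an adjoining pair and in 1.47% of all windows. The Ets core CCGGAA stood in the Dusp14 window alone among these genes and in 12% of all windows. The AP-1 site TGACTCA and the Egr site GCGNGGGCG, present in 4.46% and 4.7% of all windows, stood in none of the 8. These matches describe the letters and say nothing of binding. The windows of Dusp14 and Dusp1 and 50-base stretches of those of Dusp8 and Dusp5 are shown because their genes are set against ERK-induced genes below, with the named match in capitals; a second cAMP response element of Dusp8, nearer the start, lies outside its stretch.

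Dusp14, chr11:84068358-84068607, minus strand, Ets core in capitals: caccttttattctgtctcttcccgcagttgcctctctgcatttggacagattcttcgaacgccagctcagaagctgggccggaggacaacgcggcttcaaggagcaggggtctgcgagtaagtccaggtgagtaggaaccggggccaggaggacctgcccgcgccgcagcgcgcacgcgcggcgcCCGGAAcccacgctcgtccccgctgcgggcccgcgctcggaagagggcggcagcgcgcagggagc
Dusp1, chr17:26508473-26508722, minus strand, cAMP response element in capitals: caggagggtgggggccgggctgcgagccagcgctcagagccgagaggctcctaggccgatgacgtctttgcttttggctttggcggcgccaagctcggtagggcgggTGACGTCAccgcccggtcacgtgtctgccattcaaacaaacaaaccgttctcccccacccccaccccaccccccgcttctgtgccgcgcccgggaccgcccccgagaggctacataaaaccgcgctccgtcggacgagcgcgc
Dusp8, chr7:142095363-142095412, minus strand, the 5′ of its cAMP response elements in capitals: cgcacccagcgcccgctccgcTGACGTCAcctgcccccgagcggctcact
Dusp5, chr19:53529043-53529092, plus strand, the pair of CArG boxes in capitals: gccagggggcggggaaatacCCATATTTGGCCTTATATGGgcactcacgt

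Dusp14 is a small phosphatase with a catalytic domain and no kinase-binding domain, one of the atypical members of the family. At 12 months, the age by which it was chosen, its level was 9.75, 9.77, 9.57, 9.85, 9.72 and 9.73 in the HdhQ150 mice, against 10.26, 10.65, 10.28, 10.55 and 10.57 in the wild-type mice. The groups did not overlap, HdhQ150 lying below. The fitted difference was -0.71 (SE 0.0986), a level 1.64-fold lower in HdhQ150 mice. The count of phosphatases called lower at that age, 1 of 10, is this gene, and 0.602% of all genes were called lower; since the gene was chosen by these values, nothing is read from the count. Leaving out each 12-month mouse in turn gave differences between -0.76 and -0.67, which are a description for the same reason.

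The wild-type mice of 12 months held the highest Dusp14 levels of the study. HdhQ150 mice averaged 9.87 ± 0.23 at 6 months, 9.73 ± 0.09 at 12 months and 9.63 ± 0.16 at 18 months, with neighbouring ages overlapping. Wild-type mice averaged 10.02 ± 0.17, 10.46 ± 0.18 and 9.91 ± 0.23 at the same ages. In the fit, wild type was 0.43 higher at 12 than at 6 months and differed by -0.57 at 18 against 12 months, while HdhQ150 differed by -0.12 and -0.14 over the same steps. These steps use the 12-month wild-type mice that the genotype difference also uses, and so are not separate observations. At 12 months it was thus the wild-type mean that stood above those of the other ages, while the HdhQ150 mean lay between those of 6 and 18 months.

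The 6-month and 18-month mice gave tests that the choice of Dusp14 did not use. At 18 months the level was 9.44, 9.82, 9.66 and 9.58 in HdhQ150 mice, against 9.98, 10.08, 9.99 and 9.58 in wild-type mice. The groups overlapped through wild-type mouse WT-431, at 9.58. The difference was -0.28 (SE 0.114, 95% interval -0.52 to -0.05), with an unadjusted p of 0.0201 and a limma adjusted p of 0.682, so it did not pass the test. Over the alternatives the adjusted p at 18 months ran between 0.309 and 0.959.

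At 6 months Dusp14 was 9.94, 9.94, 10.12, 9.84 and 9.51 in HdhQ150 mice, against 9.82, 9.91, 10.23, 10.01 and 10.11 in wild-type mice, and the groups overlapped widely. The difference was -0.17 (SE 0.104, 95% interval -0.38 to 0.05), with a limma adjusted p of 0.496. Without mouse 1023, the lowest HdhQ150 value, it was -0.07. The difference between genotypes did not change detectably between 6 and 18 months, by -0.12 (SE 0.154, 95% interval -0.43 to 0.20, limma adjusted p 0.828). Within HdhQ150, 18-month mice differed from 6-month mice by -0.26 (SE 0.110), with an adjusted p of 0.185 that became 0.0282 without mice WT-454 and 1023, 0.0363 without mouse 1023 alone and 0.0432 with array weights.

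**Figure D1:**
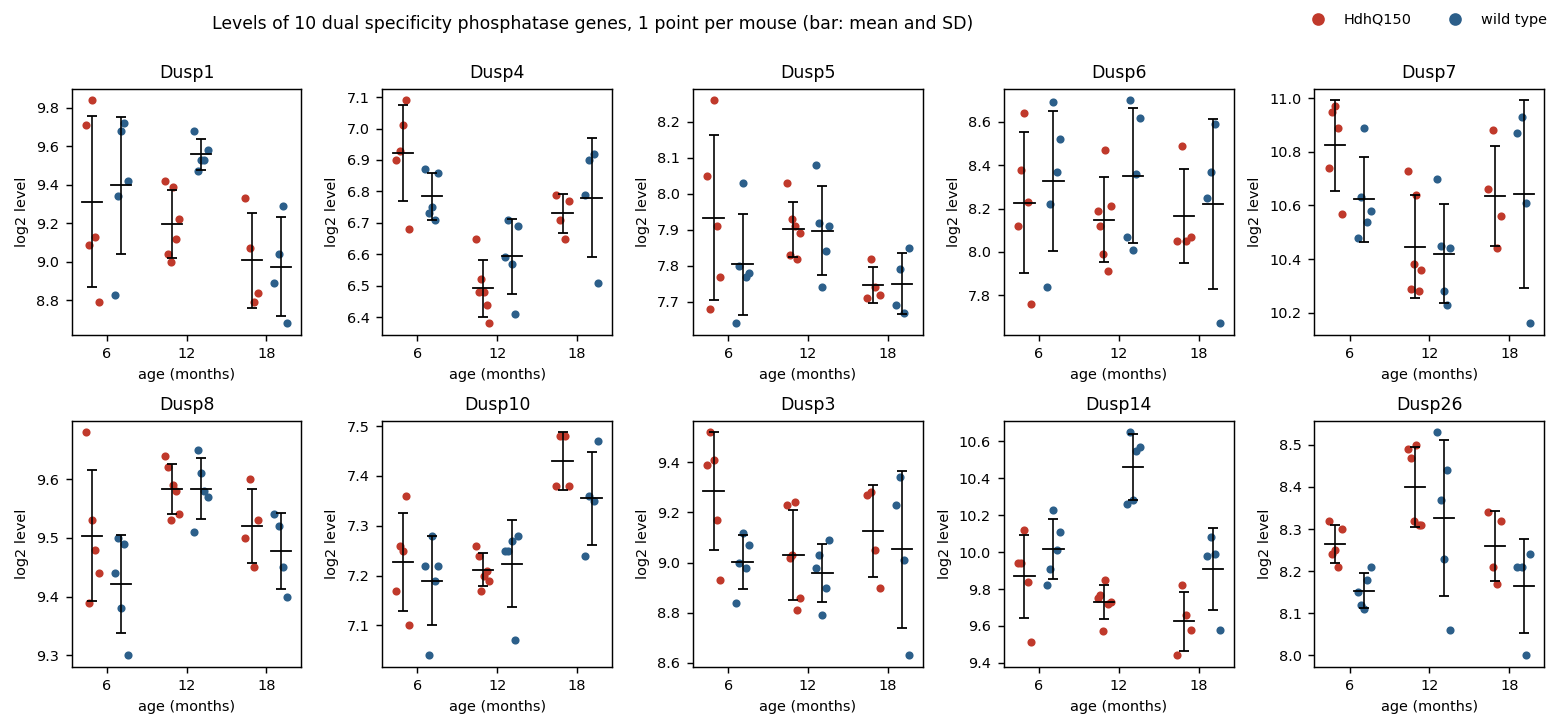
Log2 level of each of the 10 phosphatases (vertical axes, a scale of its own per gene) in every mouse by age in months, HdhQ150 in red left of wild type in blue, with group mean and SD. For Dusp14 the 12-month wild-type mice, at 10.26 to 10.65, stand above all 15 HdhQ150 mice.

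Dusp1, Dusp4 and Dusp5 are nuclear phosphatases induced within minutes to hours by growth factors, activity or stress. Dusp1 removes phosphate from JNK and p38 as well as ERK, Dusp4 from ERK and JNK, and Dusp5 from ERK. None of them passed the test between genotypes at 6 or 18 months. At 12 months Dusp1 was 9.42, 9.04, 9.0, 9.39, 9.12 and 9.22 in HdhQ150 mice, against 9.68, 9.47, 9.53, 9.53 and 9.58 in wild-type mice. The groups did not overlap, and the difference was -0.34 (SE 0.154), which the fit did not call. The same order of all HdhQ150 below all wild-type mice at 12 months was seen in Dusp14, by its choice, and in 0.908% of all genes, and among the other phosphatases in Dusp1 alone. At 18 months Dusp1 differed by 0.03 (95% interval -0.33 to 0.40).

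In wild-type mice Dusp1 was lower at 18 than at 12 months. It was 8.89, 9.04, 9.29 and 8.68 at 18 months, all below the 12-month values above, an order that 2.54% of all genes showed. The difference was -0.61 (SE 0.171) with a limma adjusted p of 0.0271. The call rested on single mice, since the adjusted p was 0.0532 without mouse WT-454, 0.0502 without mouse WT-527, 0.0788 without mouse WT-400, 0.0609 without mouse WT-401 and 0.105 without mouse WT-431. Within HdhQ150 the same step was -0.24 (SE 0.168, limma adjusted p 0.464), and the test of the difference between the steps gave 0.37 (SE 0.236, 95% interval -0.11 to 0.85, limma adjusted p 1.0). At 18 against 6 months Dusp1 differed by -0.34 in HdhQ150 (adjusted p 0.295) and by -0.49 in wild type (adjusted p 0.0947); without mice WT-454 and 1023 these were -0.50 (adjusted p 0.0453) and -0.53 (adjusted p 0.0334).

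Dusp4 was lower at 12 than at 6 months in HdhQ150 mice. It was 6.65, 6.48, 6.52, 6.48, 6.44 and 6.38 at 12 months, against 6.90, 6.93, 7.01, 7.09 and 6.68 at 6 months, with no overlap, as for 7.38% of all genes. The difference was -0.44 (SE 0.0764, limma adjusted p 0.000159), and it passed in every alternative that could be fitted, with adjusted p between 1.4e-05 and 0.00154. HdhQ150 mice of 18 months had 6.79, 6.71, 6.65 and 6.77, with a mean between those of the other ages; against 12 months the difference was 0.26 (limma adjusted p 0.071), and 0.25 without mice WT-454 and 1023 (adjusted p 0.039). In wild type the step to 12 months was -0.18 (SE 0.0803, limma adjusted p 0.0937). Dusp5 passed no test, and its 6 group means lay between 7.75 and 7.93.

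Dusp6 and Dusp7 are cytoplasmic phosphatases with a preference for ERK, and Dusp6 is a common readout of ERK activity. Between genotypes Dusp6 differed by -0.14 (95% interval -0.48 to 0.21) at 6 months and by -0.05 (95% interval -0.43 to 0.33) at 18 months, and neither passed. At 12 months its difference was -0.18, with HdhQ150 mice between 7.91 and 8.47, around a median of 8.16, against 8.01, 8.07, 8.36, 8.62 and 8.70 in wild-type mice. No age step of Dusp6 passed in either genotype.

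Dusp7 was lower at 12 than at 6 months in HdhQ150 mice. It was 10.73, 10.29, 10.38, 10.64, 10.28 and 10.36 at 12 months, against 10.74, 10.95, 10.97, 10.89 and 10.57 at 6 months. The groups overlapped, since the 12-month mice 451 and 464 lay above the lowest 6-month mouse, 1023. The difference was -0.39 (SE 0.116, limma adjusted p 0.0159), and it missed the threshold without mouse 1003 (adjusted p 0.051), without mouse 1016 (0.0506) and in the mice labelled female alone (0.0518). In wild type the step was -0.18 (SE 0.122, limma adjusted p 0.265).

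Dusp8 and Dusp10 act mainly on JNK and p38. Neither differed detectably between genotypes, with differences of 0.08 or less in size at every age for the probe sets kept. A second, dimmer probe set of Dusp8 differed by -0.182, -0.112 and 0.108 at 6, 12 and 18 months. It did not pass at 6 months (limma adjusted p 0.544) or at 18 months. Dusp8 was higher at 12 than at 6 months in wild type, at 9.51, 9.65, 9.61, 9.58 and 9.57, against 9.44, 9.50, 9.38, 9.49 and 9.30. The difference was small, 0.16 (SE 0.0543, limma adjusted p 0.0293), and the groups did not overlap, as for 6.35% of all genes. The dimmer probe set of Dusp8 went the other way in this step (-0.329), and the mean of both gave -0.08 (adjusted p 0.4). The call was also lost without wild-type mouse WT-461 (adjusted p 0.0573), WT-488 (0.0521), WT-1011 (0.0518) or WT-1020 (0.117). It was lost too with array medians subtracted (0.187), only the groups compared (0.0771) and array weights (0.0551).

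Dusp10 was higher at 18 than at 12 months in HdhQ150 mice. It was 7.38, 7.48, 7.48 and 7.38 at 18 months, against 7.26, 7.24, 7.17, 7.20, 7.21 and 7.19 at 12 months. These groups did not overlap, as for 4.76% of all genes, and the difference was 0.22 (SE 0.0632, limma adjusted p 0.0346). It stood close to the threshold: leaving out 1 mouse ended the call for HdhQ150 mice 462, 464, 487, 526, 412, 415 and 426, with adjusted p between 0.0552 and 0.136. In wild type the step was 0.13 (SE 0.0643, limma adjusted p 0.316).

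Dusp3 and Dusp26 are, like Dusp14, atypical members without a kinase-binding domain. Dusp3 acts on ERK and JNK among other substrates, and Dusp26 is a mainly neural phosphatase. At 6 months Dusp3 was 9.39, 9.52, 9.41, 9.17 and 8.93 in HdhQ150 mice, against 8.84, 9.0, 9.12, 8.98 and 9.07 in wild-type mice. The HdhQ150 mice lay above every wild-type mouse, except mouse 1023, which lay among them. The difference was 0.29 (SE 0.116, 95% interval 0.06 to 0.53), with an unadjusted p of 0.0166 and a limma adjusted p of 0.254. It passed with array weights alone (0.39, adjusted p 0.0241), and the adjusted p of the other alternatives went up to 0.655. At 12 against 6 months Dusp3 differed by -0.26 in HdhQ150 (limma adjusted p 0.085), and by -0.35 without mice WT-454 and 1023 (adjusted p 0.0189).

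Dusp26 was higher at 12 than at 6 months in wild type, by 0.19 (SE 0.0683, limma adjusted p 0.0433). Its 12-month values were 8.53, 8.37, 8.23, 8.44 and 8.06, against 8.15, 8.12, 8.11, 8.18 and 8.21 at 6 months, and the groups overlapped. Without mouse WT-454 the difference was 0.13 (adjusted p 0.21). The call was also lost without wild-type mouse WT-461 (0.0727), WT-508 (0.104), WT-1002 (0.0876), WT-1004 (0.095), WT-1011 (0.0591) or WT-1018 (0.0506). With left-out mice included, 14 of 21 alternatives lost it. Among these were females alone (adjusted p 0.429), array medians subtracted (0.148), array weights (0.14), only the groups compared (0.139), no sex term (0.0668) and all probe sets (0.0512). Between genotypes Dusp26 differed by 0.12, 0.06 and 0.09 at 6, 12 and 18 months and passed at neither of the ages tested.

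**Figure D2:**
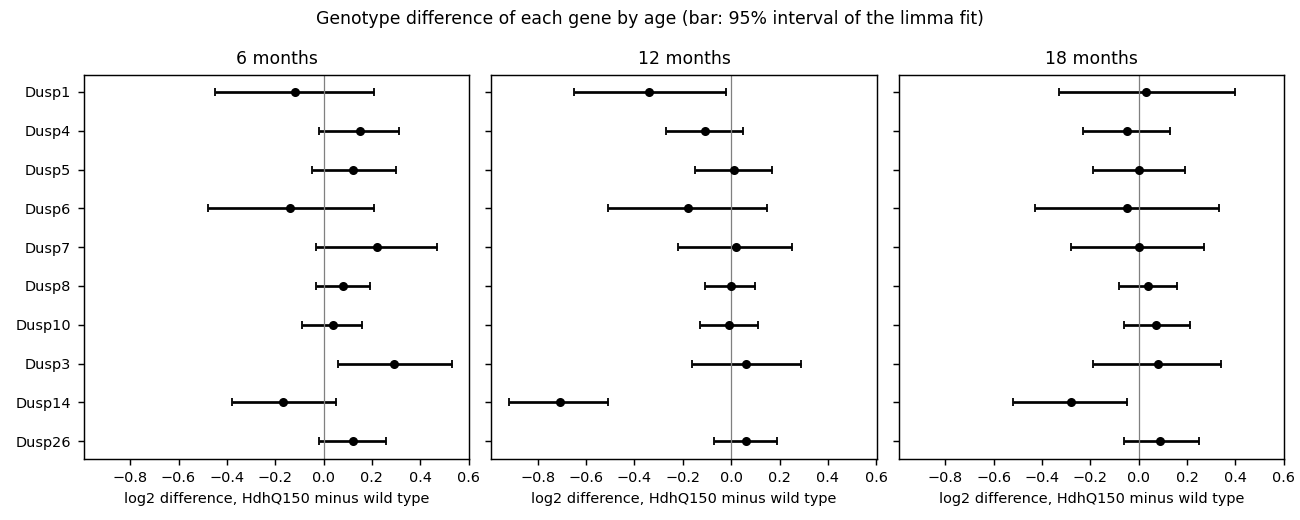
Fitted log2 difference, HdhQ150 minus wild type, for each of the 10 phosphatases at 6, 12 and 18 months, with 95% intervals; the 12-month values are a description. Dusp14 was chosen by its 12-month values, so nothing is read from its place at that age (-0.71) beside the other genes.

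Counted over the group, 0 of 10 phosphatases passed between genotypes at 6 months, where 0.0251% of all genes did, and 0 of 10 at 18 months, where 0.135% did (limma, adjusted p). At an unadjusted p under 0.05, 1 of 10 did so at each of these ages, Dusp3 at 6 and Dusp14 at 18 months, against 13.7% and 5.81% of all genes. The 6-month background depends on the arrays: 5 of all genes were called in the fit reported, 868 without mice WT-454 and 1023 and 1330 with array weights, where 0 and 1 of the 10 phosphatases were. The median difference of the 10 genes was 0.101, -0.007 and 0.016 at 6, 12 and 18 months, against 0.006, 0.006 and -0.004 over all genes. The change of the difference between 6 and 18 months passed in 0 of 10 by limma's adjusted p, as in 0 of all genes, and in 0 of 10 at an unadjusted p under 0.05, where 8.17% of all genes did.

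More genes were called between ages than between genotypes. At 12 against 6 months, 3 of 10 phosphatases were called higher in wild type (Dusp14, Dusp8 and Dusp26), where 13.1% of all genes were, and 2 of 10 were called lower in HdhQ150 (Dusp4 and Dusp7), where 11.2% were. At 18 against 12 months, 2 of 10 were called lower in wild type (Dusp14 and Dusp1), where 2.07% of all genes were, and 1 of 10 higher in HdhQ150 (Dusp10), where 4.18% were. Each count is within 2 genes of its background share of 10, and both wild-type counts include Dusp14, which was chosen on these 12-month mice. A call in 1 genotype alone does not show that the steps differ. From 6 to 12 months Dusp8 differed by 0.08 and Dusp26 by 0.13 in HdhQ150. The genotype difference changed over that step by -0.26 (Dusp4), -0.21 (Dusp7), -0.08 (Dusp8) and -0.06 (Dusp26). None of these changes passed (limma adjusted p 0.724, 0.889, 0.899 and 0.955). Between 18 and 6 months limma called 0 of 10 in HdhQ150, where 4.65% of all genes passed, and 0 of 10 in wild type, where 6.27% did. At an unadjusted p under 0.05 there were 4 of 10 in HdhQ150, against 18.5% of all genes, and 2 of 10 in wild type, against 22.6%.

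Cell type markers moved with age too. The 13 measured markers of striatal projection neurons averaged 10.12 ± 0.22 in HdhQ150 and 10.33 ± 0.11 in wild type at 6 months. At 12 months they averaged 10.47 ± 0.06 in HdhQ150 and 10.77 ± 0.06 in wild type, and at 18 months 9.75 ± 0.22 in HdhQ150 and 10.17 ± 0.12 in wild type. Of these markers, 10 were called higher in wild type at 12 against 6 months, where 13.1% of all genes were. At 18 against 12 months 11 were called lower, where 2.07% of all genes were. In HdhQ150 8 were higher and then 12 lower, where 2372 and 321 of all 19938 genes were. The 8 markers of cortical excitatory neurons averaged 8.87 ± 0.29 in HdhQ150 and 8.86 ± 0.29 in wild type at 6 months, and they were lowest at 12 months, at 7.91 ± 0.43 in HdhQ150 and 8.23 ± 0.43 in wild type. At 18 months they averaged 8.94 ± 0.27 in HdhQ150 and 9.02 ± 0.36 in wild type. The part of either list in the age differences of the phosphatases was not tested. Between genotypes at 12 months, 4 of 13 striatal markers were lower in HdhQ150 (Scn4b, Penk, Gpr6 and Pde10a), where 0.602% of all genes were. The same 4 were lower at 18 months, where 16 of all 19938 genes were, and limma called 0 at 6 months. The median difference of the 13 was -0.206, -0.291 and -0.443 at 6, 12 and 18 months. At 12 months limma called 0 of 8 cortical markers, and 2 had an unadjusted p under 0.05, where 8.98% of all genes did. The striatal marker averages, 10.36 to 10.53 in HdhQ150 mice and 10.69 to 10.84 in wild-type mice, did not overlap. Their part in the Dusp14 difference was not tested.

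The other genes of the pathway were read from lists. Of 18 other dual specificity phosphatases, limma called 0 at 6 months, 1 higher and 1 lower at 12 months, and 0 at 18 months, with 3, 4 and 3 at an unadjusted p under 0.05, where 13.7%, 8.98% and 5.81% of all genes were. Dusp18, an atypical phosphatase, was the lower one. It was 7.42, 7.48, 7.51, 7.43, 7.67 and 7.45 in HdhQ150 mice at 12 months, against 8.10, 7.94, 7.95, 7.98 and 8.10 in wild-type mice. All HdhQ150 mice lay below all wild-type mice, as for 0.908% of all genes. The Dusp18 difference was -0.52 (SE 0.074, limma adjusted p 0.000122), and it passed in every alternative at that age. Unlike Dusp14, Dusp18 did not stand high in 12-month wild-type mice, which averaged 8.01, against 8.14 at 6 months. At 18 months Dusp18 averaged 7.68 in HdhQ150 against 8.06 in wild type (difference -0.38, adjusted p 0.0888). At 6 months it differed by -0.27 (adjusted p 0.139). The 6-month difference passed without mice WT-454 and 1023 (-0.29, adjusted p 0.0384) and with array weights (-0.26, adjusted p 0.0275), and the 18-month one without HdhQ150 mouse 412 (-0.45, adjusted p 0.0187).

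Dusp15, an atypical phosphatase known from oligodendrocytes, was the higher one at 12 months. It was 7.66, 7.72, 7.73, 7.81, 7.60 and 7.61 in HdhQ150 mice, against 6.71, 7.55, 7.36, 7.38 and 7.27 in wild-type mice. The difference was 0.45 (SE 0.0943, limma adjusted p 0.0115). The lowest value was that of mouse WT-454, without which the difference was still past the threshold. Among the mice labelled female it was 0.30 (adjusted p 0.1), and with the 12-month arrays alone the adjusted p was 0.0618. Wild type averaged 7.70 at 6, 7.25 at 12 and 7.59 at 18 months, and its step to 12 months was -0.47 (limma adjusted p 0.00106). In HdhQ150 that step was -0.14 (adjusted p 0.288). At 18 months Dusp15 differed by 0.32 and did not pass (adjusted p 0.499). Of 7 measured oligodendrocyte markers, limma called 0 at 12 months, with a median difference of 0.009. At an unadjusted p under 0.05 there were 4, where 8.98% of all genes were. The part of these markers in the Dusp15 difference was not tested.

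Of 9 measured MAP kinases and 14 other brakes on the pathway, limma called 0 between genotypes at any age; at an unadjusted p under 0.05 there were 0 kinases and 5, 5 and 2 brakes at 6, 12 and 18 months, where 13.7%, 8.98% and 5.81% of all genes were. Of 18 measured activators and kinases upstream, 1 was lower at 12 and at 18 months, and limma called 0 at 6 months (2 at an unadjusted p under 0.05). It was Rasgrp2, an exchange factor that loads Ras and Rap with GTP and is enriched in striatal projection neurons. At 18 months Rasgrp2 was 8.49, 8.40, 8.63 and 8.39 in HdhQ150 mice, against 9.31, 8.88, 9.02 and 8.77 in wild-type mice. The difference was -0.52 (SE 0.111, limma adjusted p 0.0466) at 18 months and -0.41 (SE 0.0959, limma adjusted p 0.03) at 12 months. Both calls were close to the threshold, with adjusted p up to 0.178 and 0.0697 over the alternatives; leaving out 1 mouse gave up to 0.385 (without wild-type mouse WT-400) and 0.114 (without HdhQ150 mouse 462).

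The list called ERK-induced holds genes induced by ERK signalling, and also kinases and factors that act in the pathway, such as Rps6ka5 and Elk1. Of its 24 measured genes, 2 were lower in HdhQ150 at 12 months, where 0.602% of all genes were. Limma called 0 at 6 or 18 months. At an unadjusted p under 0.05 there were 4, 11 and 0 at 6, 12 and 18 months. Over all genes these shares were 13.7%, 8.98% and 5.81%. The median difference of the list was 0.003, -0.208 and -0.028 at 6, 12 and 18 months. At 12 months 19 of 24 were negative, where 47.3% of all genes were. Egr2, an early growth response factor, was 7.51, 7.33, 7.02, 7.32, 7.31 and 7.37 in HdhQ150 mice at 12 months, against 8.16, 8.44, 8.10, 8.57 and 8.66 in wild-type mice. The difference was -1.04 (SE 0.157, limma adjusted p 0.000282), and it passed in every alternative. As with Dusp14, the wild-type mice of 12 months were the highest group, at a mean of 8.39, against 7.87 in wild type at 6 months and 6.89 at 18 months. Rps6ka5, a kinase that ERK and p38 activate and that phosphorylates CREB and histone H3, was lower by -0.33 (SE 0.0825, limma adjusted p 0.0447), a call that was lost without any of 9 single mice, with adjusted p up to 0.152. At 6 months Rps6ka5 differed by -0.35 (limma adjusted p 0.13), and by -0.41 without mice WT-454 and 1023 (adjusted p 0.00729).

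Genes of the ERK-induced list also changed with age. In wild type 14 of 24 were called lower at 18 against 12 months, with a median of -0.446, where 2.07% of all genes were. In HdhQ150 it was 3 of 24, with a median of -0.17, where 321 of all 19938 genes were. The change of the genotype difference between these ages was called by limma in 0 of 24, with a median of 0.225, as in 0 of all genes; at an unadjusted p under 0.05 it was 3 of 24, where 2.07% of all genes were. The mean of the list was 8.27 ± 0.14 in HdhQ150 and 8.28 ± 0.16 in wild type at 6 months. At 12 months it was 8.17 ± 0.11 in HdhQ150 and 8.40 ± 0.08 in wild type, and at 18 months 7.97 ± 0.05 in HdhQ150 and 7.99 ± 0.14 in wild type. Ptpn5, which encodes the striatum-enriched tyrosine phosphatase that acts on ERK, was chosen after its values were seen: it was 0.54 higher in wild type at 12 than at 6 months (limma adjusted p 2.51e-06) and -0.54 at 18 against 12 months (adjusted p 1.67e-05). In HdhQ150 these steps were 0.32 and -0.54. Between genotypes at 12 months Ptpn5 was 10.31 in HdhQ150 and 10.52 in wild type, and did not pass (limma adjusted p 0.113). All HdhQ150 mice lay below, as for 0.908% of all genes.

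**Figure D3:**
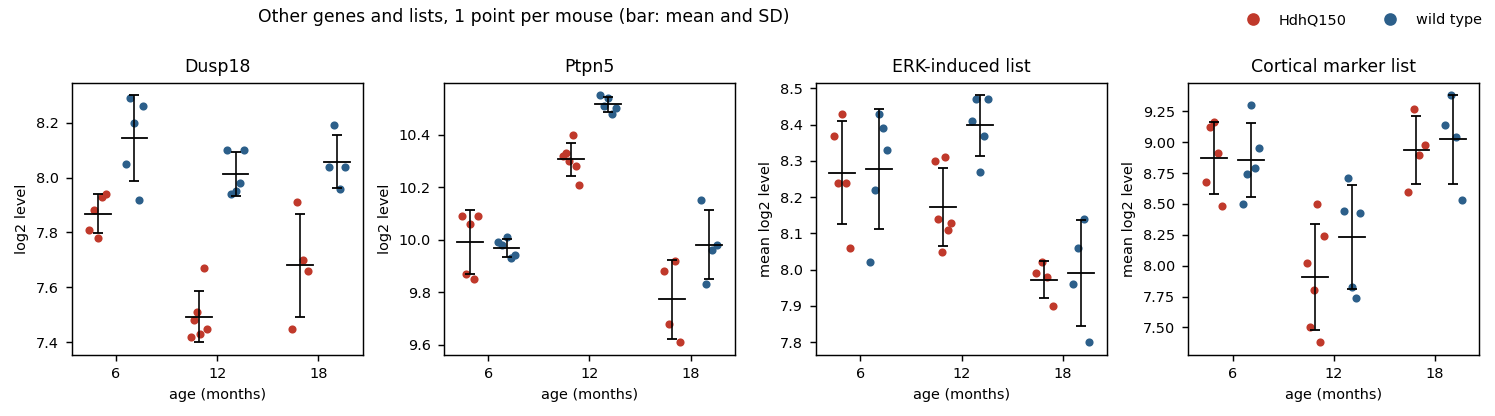
Log2 level of Dusp18 and Ptpn5 and mean log2 level of the ERK-induced and the cortical marker list in every mouse (1 point each), by age in months, HdhQ150 in red left of wild type in blue, with group mean and SD. Dusp18 is lower in HdhQ150 without overlap at 12 months, as are 0.908% of all genes, and the ERK-induced list is highest in 12-month wild-type mice, at a mean of 8.40.

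Mice of 1 group differed among themselves, and the phosphatases did so in a pattern. After the mean of each group and the labelled sex were taken out, Dusp14 and Dusp6 varied together over the 29 mice (Pearson's r 0.90, Spearman's rho 0.90). With predicted genes and clones skipped, here and in the rest of this ranking, Dusp6 had the highest r with Dusp14 of the other genes. The r was 0.88 in the 15 HdhQ150 mice, 0.92 in the 14 wild-type mice, 0.86 without the 2 mice farthest from the Dusp6 median and 0.89 without mice WT-454 and 1023. The next genes were Mlip at 0.84, Kcnh7, a voltage-gated potassium channel, at 0.83, Lmo4, a LIM domain protein of the nucleus, at 0.82, and Phf24 at 0.80. The lowest were Sox1ot at -0.86 and Cacng5, an auxiliary subunit of AMPA receptors, at -0.82. Over all 19937 other genes the median r with Dusp14 was -0.04, with 1% of genes below -0.57 and 1% above 0.66. The points share array, dissection and RNA quality, so these are descriptions.

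**Figure D4:**
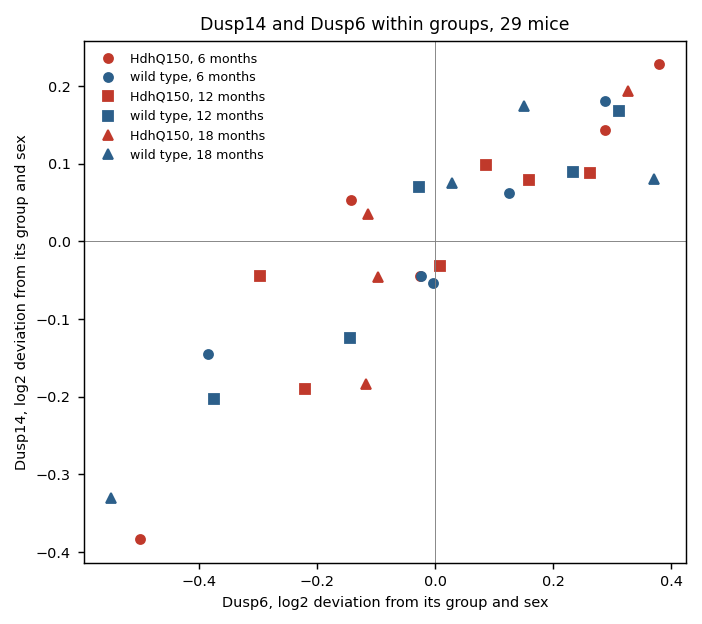
Dusp14 against Dusp6 in 29 mice, each as the log2 deviation from the mean of its group after the labelled sex is taken out, HdhQ150 in red and wild type in blue, with a marker for each age. The mice lie along 1 rising band in both genotypes, with r of 0.88 in HdhQ150 and 0.92 in wild type.

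Dusp3, Dusp6, Dusp7 and Dusp14 formed the tightest set, with r between 0.63 (Dusp7 with Dusp14) and 0.90, and Dusp3 with Dusp7 at 0.82. Their r with Dusp1 was 0.51 to 0.62, with Dusp4 0.49 to 0.58 and with Dusp5 0.30 to 0.43, and Dusp1 with Dusp5 had 0.59. Dusp8, Dusp10 and Dusp26 stood apart, between -0.26 and 0.35 with every other member. With the mean of the ERK-induced list, r was 0.86 for Dusp1, 0.83 for Dusp6, 0.78 for Dusp14, 0.76 for Dusp3, 0.68 for Dusp7, 0.53 for Dusp5 and 0.49 for Dusp4, against 0.28 for Dusp8, 0.16 for Dusp10 and 0.05 for Dusp26. The cortical marker list also varied with the set, at 0.80 for Dusp7, 0.77 for Dusp6, 0.66 for Dusp3 and 0.65 for Dusp14, against -0.03 for Dusp26. With the striatal marker list r was negative in the set, at -0.18 for Dusp14, -0.19 for Dusp3, -0.26 for Dusp6 and -0.34 for Dusp7, and it was -0.37 for Dusp4 and lowest for Dusp10, at -0.50. The part of the amount of cortical tissue in these correlations was not tested.

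**Figure D5:**
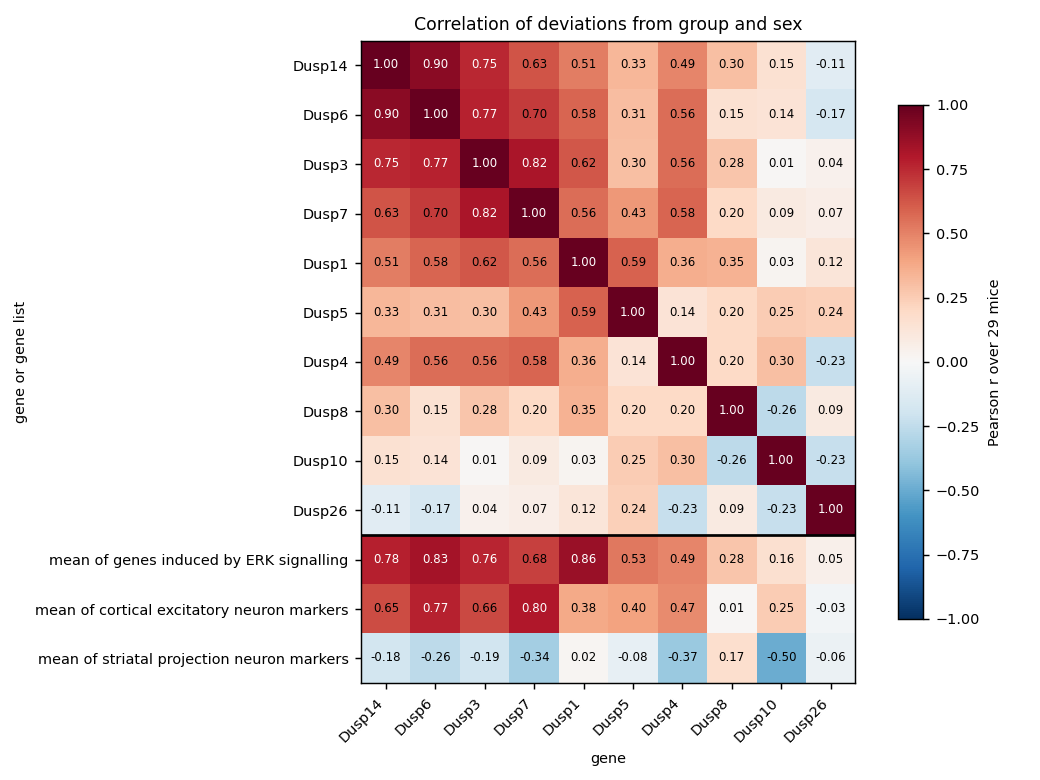
Pearson's r over 29 mice, after group means and labelled sex are taken out, between each pair of phosphatases and between each phosphatase and the means of the ERK-induced, cortical and striatal lists (colour scale from -1 to 1). Dusp3, Dusp6, Dusp7 and Dusp14 form a block of high values, from 0.63 to 0.90, and Dusp8, Dusp10 and Dusp26 stay outside it.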

How the data were processed

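The deposited log2 levels come from the authors' RMA run in Affymetrix Expression Console, according to the submitters' processing notes; the sources used here give no version or options. TRIzol-chloroform RNA was biotin-labelled with an Affymetrix WT kit, per the labels. Of 35556 probe sets, the platform annotation gave 21789 a single symbol, 1621 several, and 12146 are unnamed here; 21698 single symbols matched RefSeq (GRCm38.p6) by Entrez ID. For each gene the probe set with the highest mean was kept, which left 19938 genes. Of the phosphatases only Dusp8 had more than 1 probe set. No arrays were identical.

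All 29 arrays were fitted with limma 3.58.1 in R 4.3.3, with a mean per group, a term for labelled sex and eBayes with trend, leaving 22 residual degrees of freedom. P-values are two-sided and adjusted by Benjamini and Hochberg over all genes, at 0.05. Each mouse is 1 replicate. The members, lists and tests were chosen with earlier results of these data known. Beyond the members, genes are named where a genotype comparison passed within a list, plus Htt and the 5 genes most and 2 least like Dusp14, skipping predicted genes and clones. Ptpn5 was named after its values were seen. The method was tested on simulated data of 19938 genes, in which 67 genes per comparison were changed by 0.3 and 66 by 1.0. It recovered 50.7%, 37.3% and 32.8% of changes of 0.3 between genotypes at 6, 12 and 18 months, and 98.5% of changes of 1.0 at each age. Of changes of 0.3 it recovered 23.9% in HdhQ150 at 18 against 6 months. For the change of the genotype difference from 6 to 18 months it was 25.4%. Alternatives were other covariates, samples, filters, probe sets, weights, centring and variance models, and each mouse left out in turn.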

Additional observations from a re-analysis of the deposited data

Results flagged for a closer look

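Of 60 combinations of gene and group, 3 held a mouse far from the others of its group by Dixon's test at the 95% level, and chance alone flags about 1 in 20. Dusp6 was 8.49 in HdhQ150 mouse 412 at 18 months, while the other HdhQ150 mice of that age had 8.05, 8.05 and 8.07. That mouse also had the highest Dusp14 value of its group, 9.82. Dusp10 was 7.07 in wild-type mouse WT-508 at 12 months, while the others of that group had between 7.25 and 7.28. Dusp26 was 8.0 in wild-type mouse WT-414 at 18 months, while the others had 8.21, 8.21 and 8.24.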

How the results depend on the processing

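Over 100 differences of the phosphatases and 2140 alternative values, 2076 kept their direction or their place below the threshold, 39 lost and 24 gained a call, and 1 reversed: Dusp8 in wild type at 12 against 6 months, at -0.08 with the mean of its probe sets, the other of which went the opposite way. Among the 2076, 144 changed sign while past the threshold in neither setting, none larger than 0.16. The cause of the following moves was not tested. With array weights, 1 phosphatase was called between genotypes at 6 months (0 in the fit reported), 1 in wild type at 12 against 6 months (3), 2 in HdhQ150 at 18 against 12 months (1) and 4 at 18 against 6 months (0). With only the groups compared, 1 was called in wild type at 12 against 6 months and 0 in HdhQ150 at 18 against 12 months. With all probe sets, 1 was called in wild type at 18 against 12 months (2) and 0 in HdhQ150. Without mice WT-454 and 1023, 1 was called in wild type at 18 against 6 months (0), 2 in HdhQ150 at 18 against 12 months and 2 at 18 against 6 months. Among mice labelled female, 1 was called in wild type at 18 against 6 months and 1 in HdhQ150 at 12 against 6 months (2). With the upper 50% of genes, which leaves out Dusp4, 1 was called in HdhQ150 at 12 against 6 months and 1 at 18 against 6 months. Of 81 pathway genes, 0 were called at 6 months, but 6 with array weights and 5 without the 2 mice; 5 at 12 months, but 10 and 8 in those settings and 3 among females, with medians subtracted or with all probe sets; and 1 at 18 months, Rasgrp2, but 0 without the sex term, among females, with only the groups compared, with medians subtracted, with mouse 1023 as male or with all probe sets. Leaving out 1 mouse gave 1 to 3 phosphatases in wild type at 12 against 6 and at 18 against 12 months, 0 to 1 at 18 against 6 months, and in HdhQ150 1 to 3 at 12 against 6 months, 0 to 1 at 18 against 12 and at 18 against 6 months; it gave 0 to 1, 3 to 8 and 0 to 1 pathway genes at 6, 12 and 18 months. Dusp14 at 12 months ranged from -0.79 to -0.70 over the alternatives, a description, since the gene was chosen by that age. No paired analysis was possible because the mouse numbers in the labels are not shared between groups. Other background corrections could not be run on values already summarised by RMA.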
